A study of Mus musculus with 2 samples.

Results

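The circadian clock genes described here were the 10 rows of the gene table with the symbols Arntl, Clock, Npas2, Per1, Per2, Per3, Cry1, Cry2, Nr1d1 and Dbp, out of 55357 genes counted in each library. All 10 were found once each and gave unique molecular identifiers (UMIs, the tags that mark single RNA molecules) in both libraries. The study describes its material as single cells of whole hearts from C57BL/6 mice, sequenced on the 10x Chromium platform. There was 1 library for Sham and 1 for transverse aortic constriction (TAC), a ligation of the aortic arch that overloads the left ventricle. By the labels, the TAC mice were males operated on when 8 weeks old and studied after 6 weeks of constriction, and Sham mice had the same surgery without the constriction, although the series text calls the reference mice uninjured. The labels give neither the sex nor the age of the Sham mice, and 3 to 5 hearts were pooled per library, so the spread between mice could not be measured. The study's methods place its animal experiments mainly in the morning under a fixed light and dark cycle. Those methods describe isoproterenol infusion and bone marrow transplants but no TAC surgery, so whether this timing covers the TAC hearts is not known. The hour at which these hearts were collected was not given in the sources used here, so the condition, the hour, the handling and the library cannot be told apart in any comparison of TAC with Sham.

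In mammals the clock is a loop of transcription and translation that runs in nearly every cell with a period of about a day. BMAL1 (encoded by Arntl) pairs with CLOCK, or with the related NPAS2, and switches on genes through E-boxes in their promoters. The period proteins (Per1, Per2, Per3) and the cryptochromes (Cry1, Cry2) accumulate and repress that pair, the nuclear receptor REV-ERB alpha (Nr1d1) represses Arntl, and Dbp is an output factor that acts through D-boxes. In the heart the loop is known to set daily rhythms of metabolism and of electrical properties, and Per1 is in addition switched on directly by glucocorticoids and by cyclic AMP signalling.

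The reference promoters of the members were searched for these elements, since the genes below were compared as the 2 arms of this loop. RefSeq promoters of the GRCm38.p6 build (250 bases before to 50 after a start site) were found for 9 of the 10 members. None was found for Per2, which was therefore not searched. The motifs searched on both strands were the E-box CACGTG, the E-prime box CACGTT, the D-boxes TTATGTAA and TTACGTAA, the ROR half-sites TAGGTCA and TGGGTCA and the cyclic AMP element TGACGTCA, none of which overlapped another in the members. The E-box was held by Per1 and Cry1, against 8.09% of 27025 genes with a promoter (7.15% of 32851 promoters). The E-prime box was held by Cry1, Cry2 and Nr1d1, against 5.44% of genes (4.68% of promoters). Per3 held 2 copies of a D-box, an element found in 1.23% of genes (1.06% of promoters), and Arntl held 1 ROR half-site, found in 7.35% of genes (6.45% of promoters), just after its second start site. The cyclic AMP element, found in 2.03% of genes (1.79% of promoters), was in none of these windows. A match describes letters only and is no evidence of binding in these cells. The 5 stretches below are the 250 bases before the start site of each member that held a motif there, and capitals mark the motifs.
Per1, chr11:69098699-69098948, plus strand: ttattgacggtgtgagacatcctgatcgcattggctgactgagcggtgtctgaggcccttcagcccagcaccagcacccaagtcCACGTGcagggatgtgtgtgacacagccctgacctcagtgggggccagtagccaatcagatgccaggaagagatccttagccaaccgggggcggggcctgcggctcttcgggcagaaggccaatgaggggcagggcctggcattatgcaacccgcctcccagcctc
Cry1, chr10:85185055-85185304, minus strand: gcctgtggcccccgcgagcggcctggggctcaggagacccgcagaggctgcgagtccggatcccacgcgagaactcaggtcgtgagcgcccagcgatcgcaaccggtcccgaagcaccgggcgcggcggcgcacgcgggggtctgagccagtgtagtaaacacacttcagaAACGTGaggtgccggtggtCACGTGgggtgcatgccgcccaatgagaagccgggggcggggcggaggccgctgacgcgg
Cry2, chr2:92434070-92434319, minus strand: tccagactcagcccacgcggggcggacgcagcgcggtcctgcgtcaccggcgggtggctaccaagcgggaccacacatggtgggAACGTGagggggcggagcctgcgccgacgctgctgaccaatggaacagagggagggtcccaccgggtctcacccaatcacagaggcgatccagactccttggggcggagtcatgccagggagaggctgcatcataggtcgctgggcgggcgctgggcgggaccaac
Nr1d1, chr11:98775378-98775627, minus strand: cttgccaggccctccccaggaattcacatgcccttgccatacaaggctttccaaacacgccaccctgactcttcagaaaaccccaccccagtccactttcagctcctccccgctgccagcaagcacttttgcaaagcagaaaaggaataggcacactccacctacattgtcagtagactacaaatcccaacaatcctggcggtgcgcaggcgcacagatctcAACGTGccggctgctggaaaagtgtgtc
Per3, chr4:151044666-151044915, minus strand: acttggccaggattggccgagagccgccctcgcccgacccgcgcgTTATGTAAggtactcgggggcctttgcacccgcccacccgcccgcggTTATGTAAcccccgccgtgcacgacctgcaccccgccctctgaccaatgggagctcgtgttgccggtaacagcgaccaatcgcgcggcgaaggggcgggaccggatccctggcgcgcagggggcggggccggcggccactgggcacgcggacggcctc
Counted from the start site, with -1 as the base before it, the E-box of Per1 lay at -166 to -161 and that of Cry1 at -60 to -55, with an E-prime box at -79 to -74. The E-prime box lay at -166 to -161 in Cry2 and at -28 to -23 in Nr1d1, and the D-boxes of Per3 at -205 to -198 and -158 to -151. In GENCODE M21, on GRCm38, the stretches of Per3, Cry2 and Nr1d1 held no exon of any gene, that of Per1 held 1 exon base and that of Cry1 held 10. The stretch before Per3 lay within an intron of Camta1.

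The Sham library held 28146691 UMIs in 9935 barcodes and the TAC library 29108986 UMIs in 9932 barcodes, and 32 barcode sequences occurred in both. After removal of called doublets, 9475 Sham and 9452 TAC cells were typed by clusters and markers, and 96.9% and 97.0% of them fell into 5 large types with at least 300 cells in each library. These were cardiomyocytes (2511 Sham and 2398 TAC cells), fibroblasts (2293 and 2126), endothelial cells (1904 and 2251), pericytes (1063 and 1043) and macrophages (1412 and 1347). Levels are summed UMIs of a gene per 1000000 UMIs of that cell type with an exact Poisson 95% interval, and ratios carry an exact conditional binomial 95% interval. With 1 library per condition no test was possible, and the intervals cover counting error only, not the spread between mice or libraries. Levels are compared between cell types and libraries and not between genes.

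Npas2 was the member that differed most between cell types, with a level that was high in fibroblasts and pericytes and close to nil in macrophages. In the Sham library its level was 329 (314 to 345) in fibroblasts, 218 (197 to 240) in pericytes, 89.6 (84.6 to 94.8) in cardiomyocytes, 33.0 (26.2 to 41.1) in endothelial cells and 9.51 (5.89 to 14.5) in macrophages. In the TAC library the same types stood in the same order, at 468 (450 to 487), 358 (332 to 386), 77.1 (72.4 to 82.0), 38.7 (32.2 to 46.1) and 6.51 (3.79 to 10.4). All 4 steps of that order had an interval above 1 in both libraries, and the fibroblast level was 34.6 times the macrophage level in Sham and 71.9 times in TAC. The macrophage level came from 21 and 17 UMIs with never more than 1 in a cell. RNA of cardiomyocytes and fibroblasts in the macrophages, taken at the highest share of 3 marker genes of each, would give a level of 16.3 in Sham and 19.7 in TAC, so the macrophage level is read as background. The same upper estimate reached 33.1 in Sham and 42.5 in TAC for endothelial cells, as much as was seen.

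When cells were thinned to 1000 UMIs, Npas2 was seen in 21.9% of Sham fibroblasts (456 of 2079, Clopper-Pearson 95% interval 20.2 to 23.8) and in 30.6% of TAC fibroblasts (622 of 2034, 28.6 to 32.6). In pericytes the thinned share was 16.1% in Sham and 24.3% in TAC, against 6 of 1011 cells and 9 of 1125 cells in macrophages. In pericytes the upper estimate of cardiomyocyte and fibroblast RNA was a level of 73.1 in Sham and 97.9 in TAC, 33.6% and 27.3% of the Npas2 level seen. Its fibroblast part was set by Col3a1, at 20.7% and 20.2% of the fibroblast level. Dcn stood at 3.56% and 3.61% in pericytes, beside 3.32% and 3.56% in macrophages. Pdgfra stood at 2.28% and 0.44% in pericytes, beside 1.24% and 1.16%. Whether pericytes carried more background than macrophages was therefore not settled. Without thinning the fibroblast shares were 34.2% and 45.6%, at a median of 2153 and 2270 UMIs per cell, and the macrophage shares were 1.49% and 1.26%, at 1315 and 1661. Thinning left out 214 Sham and 92 TAC fibroblasts, 189 and 88 pericytes and 401 and 222 macrophages with fewer UMIs. Endothelial clusters of both libraries clustered together were not alike in Npas2. From 19 to 57 UMIs per cluster and library, its Sham level was 15.9 in the largest cluster, 58.7 in the cluster led by Kcnc2 and Vegfc and 93.7 in the cluster led by Tmem108, Nrg1 and Npr3, and the TAC levels of 16.7, 57.4 and 86.8 kept that order.

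Arntl and Clock, the other activators, were seen in every large cell type and were lowest in cardiomyocytes in both libraries. The Arntl level in the Sham library was 67.3 (63.0 to 71.9) in cardiomyocytes, 130 (114 to 148) in pericytes, 142 (127 to 158) in endothelial cells, 152 (142 to 163) in fibroblasts and 202 (184 to 222) in macrophages. In the TAC library it was 89.4 (84.4 to 94.7) in cardiomyocytes, 134 (121 to 147) in endothelial cells, 160 (142 to 179) in pericytes, 188 (172 to 205) in macrophages and 194 (183 to 207) in fibroblasts. Neighbours that did not differ beyond counting error were pericytes, endothelial cells and fibroblasts in Sham, and macrophages and fibroblasts in TAC. The Clock level was 123 (117 to 129) in Sham cardiomyocytes and 136 (130 to 143) in TAC cardiomyocytes. In the other 4 types the Clock level lay between 166 and 202 in Sham and between 188 and 232 in TAC. No pair of neighbours among these 4 differed beyond counting error in either library. Beyond neighbours, the macrophage interval lay above that of fibroblasts in both libraries, and in TAC also above that of pericytes. The highest type, macrophages, exceeded cardiomyocytes 1.65 times (1.48 to 1.83) in Sham and 1.71 times (1.55 to 1.87) in TAC for Clock.

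Per1, whose product joins the repressor complex, was highest in macrophages and lowest in cardiomyocytes in both libraries. Its Sham level was 168 (151 to 185) in macrophages, 129 (115 to 144) in endothelial cells, 82.9 (70.2 to 97.1) in pericytes, 79.8 (72.4 to 87.6) in fibroblasts and 49.6 (45.9 to 53.5) in cardiomyocytes. In the TAC library the Per1 level was 85.4 (74.6 to 97.4) in macrophages, 62.1 (55.5 to 69.2) in fibroblasts, 55.1 (45.1 to 66.7) in pericytes, 51.7 (44.2 to 60.2) in endothelial cells and 36.1 (33.0 to 39.5) in cardiomyocytes. The span from macrophages to cardiomyocytes was 3.38 times in Sham and 2.36 times in TAC. In Sham, endothelial cells stood above pericytes 1.56 times (1.28 to 1.90), while in TAC neighbours among fibroblasts, pericytes and endothelial cells did not differ beyond counting error.

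Per2, a period gene whose loss disturbs the rhythm of mice, had its highest level in pericytes. The Sham level was 128 (112 to 146) in pericytes, 85.5 (77.9 to 93.6) in fibroblasts, 59.4 (50.1 to 69.9) in endothelial cells, 30.8 (23.9 to 39.0) in macrophages and 27.8 (25.1 to 30.8) in cardiomyocytes. The TAC level was 84.3 (71.8 to 98.3) in pericytes, 57.4 (51.1 to 64.3) in fibroblasts, 35.6 (29.4 to 42.7) in endothelial cells, 25.8 (23.2 to 28.7) in cardiomyocytes and 12.6 (8.70 to 17.7) in macrophages. Each step down the order had an interval above 1 except that between macrophages and cardiomyocytes in Sham. The upper estimate of cardiomyocyte and fibroblast RNA amounted to 14.7% of the macrophage level in Sham and 24.2% in TAC. Pericytes, where Per2 was highest, were not a source in that estimate, so it can fall short of all background.

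Per3, whose product is dispensable for the rhythm itself, was a fibroblast gene by level, at 96.7 (88.6 to 105) in Sham and 83.5 (75.8 to 91.7) in TAC fibroblasts. In the other 4 types its level lay between 27.3 and 39.9 in Sham, with no neighbours that differed beyond counting error, and between 13.8 and 41.2 in TAC, where macrophages stood below pericytes 2.604 times (1.72 to 4.01). Beyond neighbours, the Sham interval in cardiomyocytes (36.6 to 43.4) lay above those in macrophages (21.1 to 35.5) and pericytes (20.2 to 35.9). Per3 lies whole inside Camta1 on the same strand in GENCODE M21, with no shared exon bases, so unspliced reads of the pair cannot be assigned with certainty.

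Cry1 was lowest in cardiomyocytes, and Cry2 in macrophages, although in Sham the latter did not differ from cardiomyocytes beyond counting error. The Cry1 level was 10.2 (8.53 to 12.01) in Sham and 7.24 (5.86 to 8.85) in TAC cardiomyocytes, below every other large type in both libraries. In fibroblasts, endothelial cells and pericytes the Cry1 level lay between 26.4 and 29.7 in Sham and between 27.4 and 42.1 in TAC, and no neighbours among the 3 differed beyond counting error. The TAC interval in pericytes (33.5 to 52.4) nevertheless lay above that in fibroblasts (23.1 to 32.3). The Cry2 level was highest in pericytes, at 68.7 (57.2 to 81.8) in Sham and 60.9 (50.3 to 72.9) in TAC, and next in fibroblasts, at 57.1 (50.9 to 63.8) and 57.2 (50.9 to 64.1), which did not differ from pericytes beyond counting error. Cry2 then stood at 47.0 and 40.2 in endothelial cells, 24.7 and 19.4 in cardiomyocytes and 19.0 and 11.5 in macrophages.

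Nr1d1 and Dbp, with 579 and 354 UMIs in all Sham cells and 475 and 453 in all TAC cells, were among the most sparsely counted members, as was Cry1 with 473 and 478. Nr1d1 and Dbp were highest in fibroblasts in both libraries, where Nr1d1 had a level of 41.3 (36.0 to 47.0) in Sham and 27.9 (23.6 to 32.9) in TAC, and Dbp 19.0 (15.5 to 23.0) and 30.1 (25.5 to 35.2). In cardiomyocytes the Nr1d1 level was 19.6 (17.3 to 22.1) in Sham and 19.97 (17.6 to 22.5) in TAC, and the Dbp level was 14.1 (12.2 to 16.2) and 16.3 (14.2 to 18.7). In Sham, Dbp did not differ beyond counting error between fibroblasts and pericytes or between pericytes and cardiomyocytes, and fibroblasts were not set directly against cardiomyocytes. In TAC, where fibroblasts and cardiomyocytes were neighbours, fibroblasts exceeded cardiomyocytes 1.84 times (1.49 to 2.28). No contrast between the libraries is read from these steps. Macrophages held only 12 UMIs of Nr1d1 in Sham and 3 in TAC. Nr1d1 shares 263 exon bases with Thra on the opposite strand and Dbp shares 539 with Sphk2, and how the strand of reads was used in counting was not given in the sources used here.

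**Figure D1:**
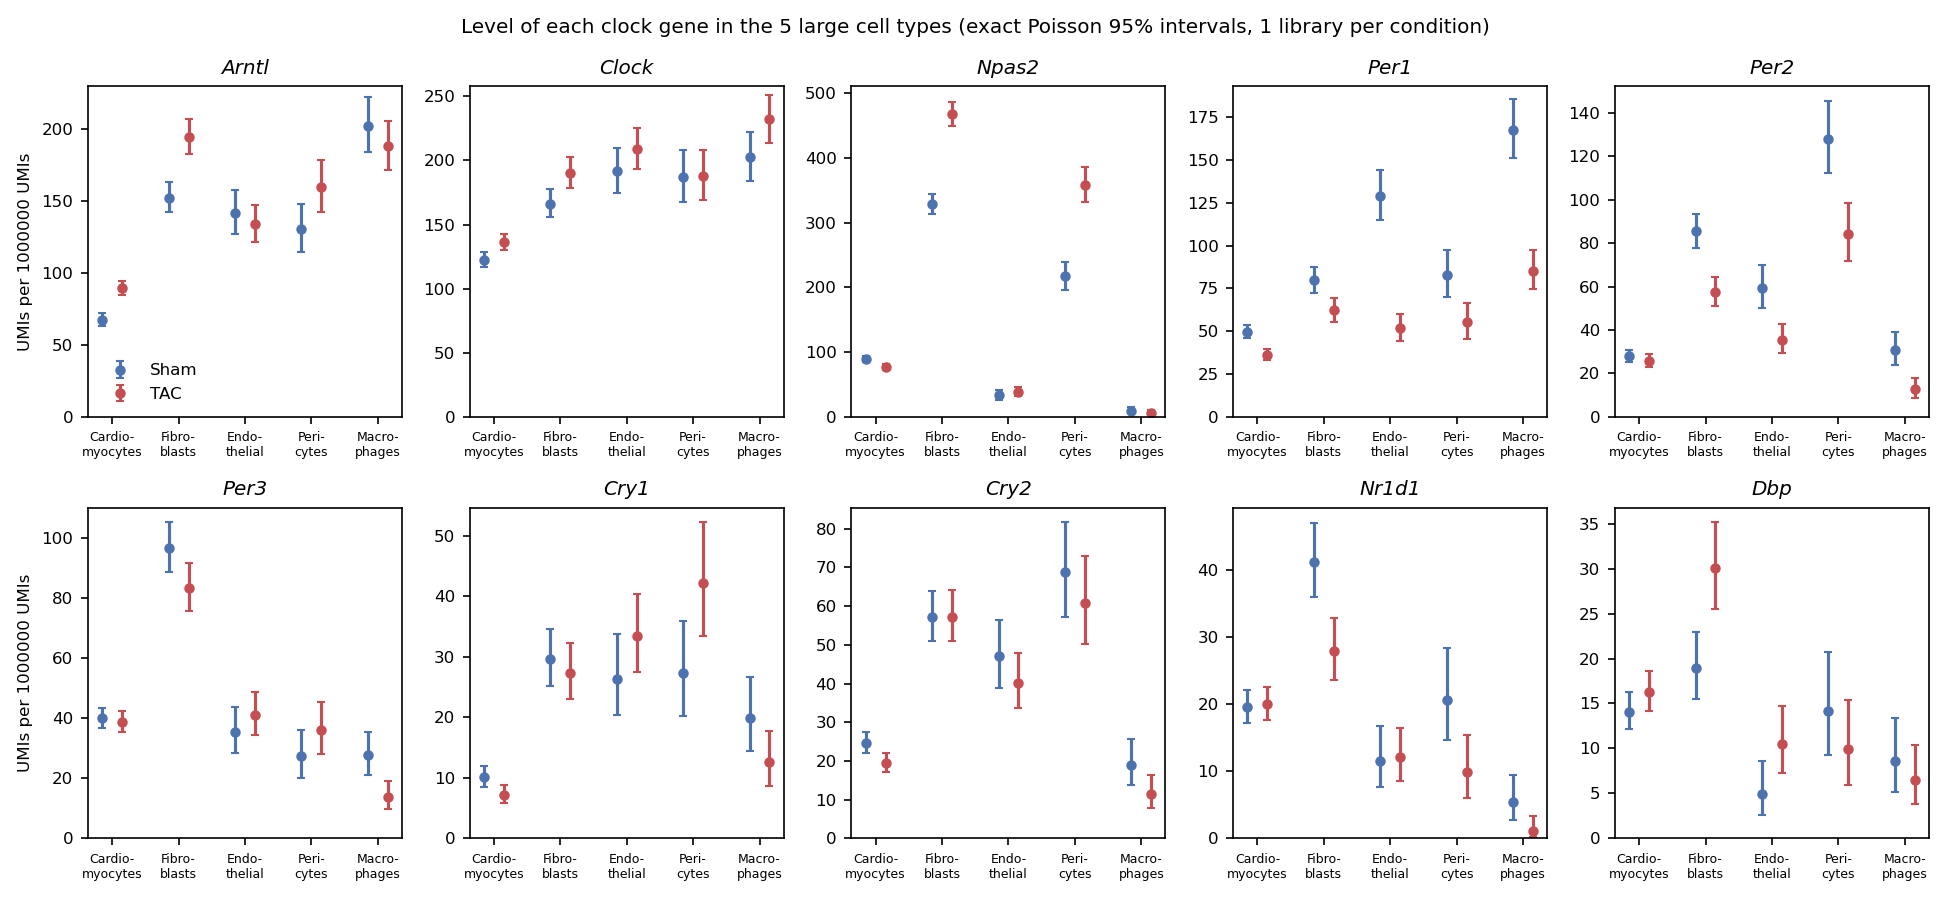
Level of each clock gene, in UMIs per 1000000 UMIs of the cell type, in the 5 large cell types of the Sham library (blue) and the TAC library (red), with exact Poisson 95% intervals and an axis that starts at 0 in each panel. Npas2 stood highest in fibroblasts (329 in Sham, 468 in TAC) and near 0 in macrophages, while Per1 was lower in TAC in each type, from 129 to 51.7 in endothelial cells.

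Between the libraries, Per1 was below its Sham level in all 5 large types, and the other members differed in size and direction from type to type. Members were called where the ratio of TAC to Sham was at least 1.5 or at most its inverse, and only where both libraries together held at least 50 UMIs. Of 50 pairs of a member and a cell type, 45 passed that minimum, and of these 3 were higher and 10 lower in TAC. The 5 pairs under the minimum were Npas2, Nr1d1 and Dbp in macrophages and Dbp in endothelial cells and pericytes. The same minimum and ratio were applied to all genes, whose shares are given beside the counts of each type.

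The lowest ratio among the 45 pairs was that of Per1 in endothelial cells. The Per1 ratio of TAC to Sham was 0.4005 (0.330 to 0.485) in endothelial cells, 0.510 (0.430 to 0.604) in macrophages and 0.665 (0.514 to 0.858) in pericytes, which were called lower. It was 0.728 (0.646 to 0.821) in cardiomyocytes and 0.778 (0.672 to 0.901) in fibroblasts, short of the threshold with intervals below 1. The thinned share of endothelial cells with a Per1 UMI was 11.6% (126 of 1090) in Sham and 4.85% (74 of 1525) in TAC, and that of macrophages 15.4% (156 of 1011) and 8.27% (93 of 1125). Unthinned, the shares were 14.4% and 7.20% in endothelial cells and 21.2% and 14.8% in macrophages. The upper estimate of cardiomyocyte and fibroblast RNA was 7.88% of the endothelial Per1 level in Sham and 13.7% in TAC. No type was free of Per1, and the lowest thinned share, 4.88% in Sham and 3.98% in TAC, was that of cardiomyocytes.

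Per2 was called lower in macrophages at a ratio of 0.410 (0.262 to 0.631), in endothelial cells at 0.599 (0.465 to 0.771) and in pericytes at 0.658 (0.535 to 0.807). In fibroblasts its ratio of 0.672 (0.579 to 0.779) fell just outside the threshold, and in cardiomyocytes it was 0.929 (0.80 to 1.08), with an interval that held 1. Per3 differed past the threshold only in macrophages among the 5 types, at 0.499 (0.321 to 0.766), and its other ratios ran from 0.863 in fibroblasts to 1.32 (0.902 to 1.93) in pericytes. The upper estimate of cardiomyocyte and fibroblast RNA was 81.4% of the Per3 level in Sham pericytes and 51.4% in TAC pericytes. Cry1 was called lower in macrophages at 0.634 (0.391 to 1.02), with an interval that held 1, and higher in pericytes at 1.55 (1.07 to 2.25). Cry2 was called lower in macrophages alone, at 0.604 (0.365 to 0.988), and stood at 0.787 (0.666 to 0.929) in cardiomyocytes.

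Among the activators, Npas2 was called higher in pericytes at a ratio of 1.65 (1.45 to 1.87) and stood at 1.42 (1.34 to 1.51) in fibroblasts. In cardiomyocytes the Npas2 ratio was 0.860 (0.791 to 0.936), on the other side of 1. In endothelial cells it was 1.17 (0.879 to 1.57), and 0.707 when doublets were kept, so no direction is given there. The Arntl ratio was 1.33 (1.22 to 1.45) in cardiomyocytes, 1.28 (1.16 to 1.40) in fibroblasts and 1.23 (1.03 to 1.46) in pericytes, and its intervals in endothelial cells and macrophages held 1. The Clock ratio lay between 1.004 and 1.15 in all 5 types.

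Nr1d1 was called lower in pericytes at 0.477 (0.260 to 0.848), from 38 UMIs in Sham and 19 in TAC. The upper estimate of cardiomyocyte and fibroblast RNA was 46.3% of its pericyte level in Sham and 65.4% in TAC. The part of that RNA in the ratio was not tested. The Nr1d1 ratio stood at 0.677 (0.546 to 0.838) in fibroblasts and 1.02 (0.857 to 1.22) in cardiomyocytes. Dbp was called higher in fibroblasts at 1.58 (1.23 to 2.05), from 103 UMIs in Sham and 156 in TAC, and at 1.43 with the mean of each cell's share it was not called. Dbp and Nr1d1 stood on opposite sides of 1 in fibroblasts, with intervals that left out 1. In endothelial cells the 12 Sham and 34 TAC UMIs of Dbp were under the minimum and gave a ratio of 2.13 (1.07 to 4.51).

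Taken by cell type, macrophages had the most members called lower. In macrophages 5 of 7 members tested were lower (Per1, Per2, Per3, Cry1 and Cry2), against 8.82% of 9529 genes, and 0 were higher, against 9.19% of genes. With doublets kept, Cry1 (0.738) and Cry2 (0.770) were no longer called there, and Cry1 was not called either when each cell was typed singly from its markers (0.681). The median log2 ratio of these members was -0.73, beside 0.00 for all genes tested there. In pericytes 3 of 9 were lower (Per1, Per2 and Nr1d1), against 6.53% of 8373 genes, and 2 were higher (Npas2 and Cry1), against 7.35%, at a median of 0.01. Of these, Per1 in pericytes lost its call with each cell typed singly from its markers (0.718), Per2 with doublets kept (0.714) and Cry1 with the mean of each cell's share (1.27). In endothelial cells 2 of 9 were lower (Per1 and Per2), against 5.87% of 10082 genes, and 0 higher, against 9.15%, at a median of 0.06. Fibroblasts had 1 of 10 higher (Dbp), against 10.5% of 12300 genes, and 0 lower, against 4.33%, and cardiomyocytes had 0 of 10 higher, against 12.9% of 13303 genes, and 0 lower, against 6.76%. Counts in these last types were therefore no larger than the share of all genes, with medians of -0.06 and -0.07. In macrophages each of the 5 members called, except Per1, rested on at most 68 Sham and 36 TAC UMIs.

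**Figure D2:**
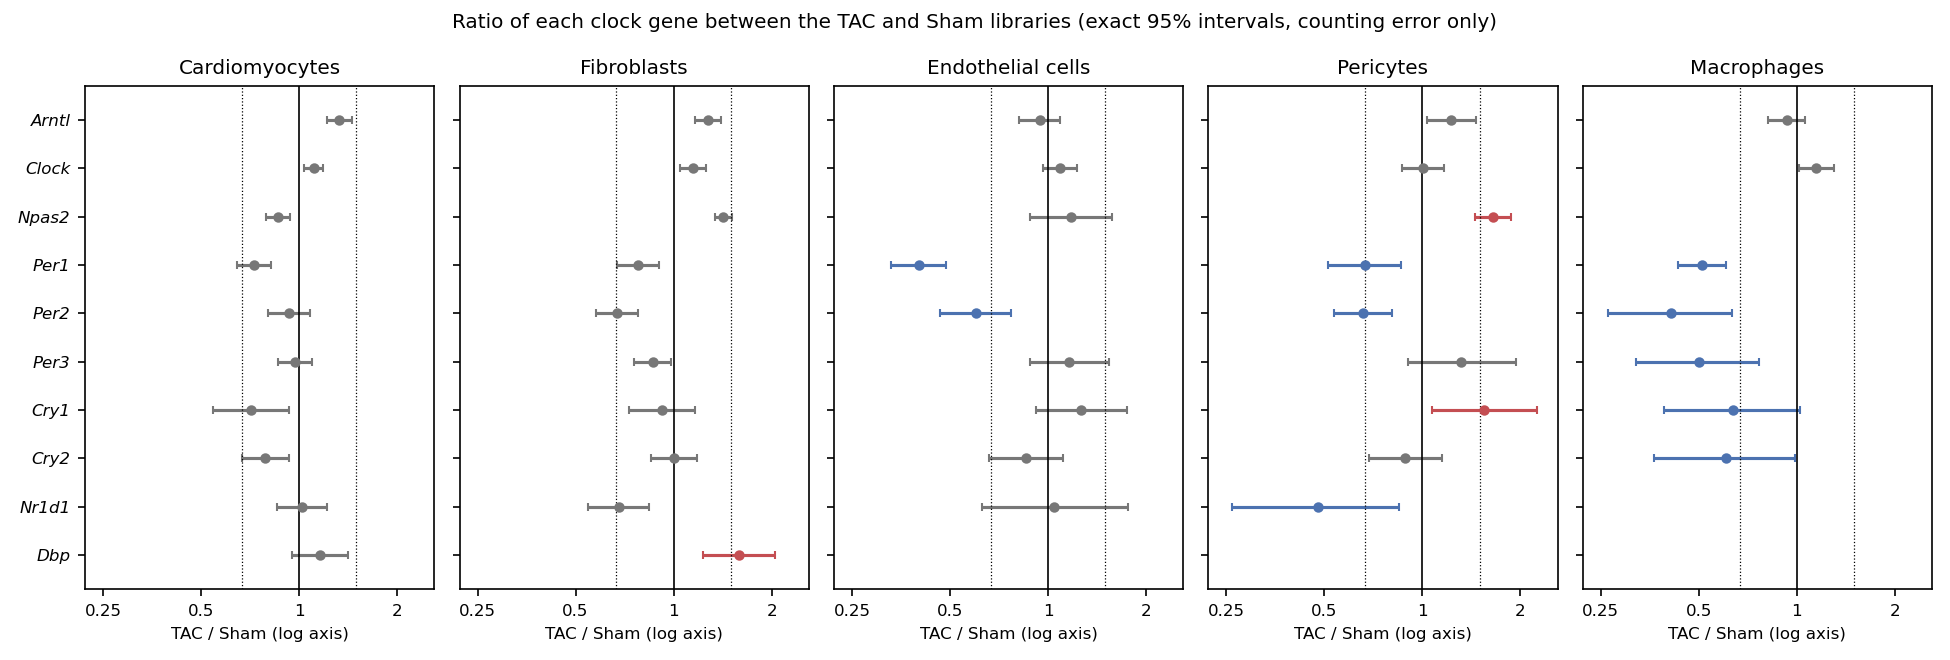
Ratio of TAC to Sham for each clock gene in each large cell type on a log axis, with exact 95% intervals that cover counting error only, for the 45 pairs with at least 50 UMIs. Dotted lines mark 1.5 and its inverse, and colours mark the 3 pairs called higher (red) and the 10 called lower (blue), 5 of them in macrophages.

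Summed by role, the 3 activators together had a ratio of 1.32 (1.26 to 1.38) in fibroblasts and 1.32 (1.22 to 1.43) in pericytes, 1.08 (1.04 to 1.13) in cardiomyocytes, and intervals that held 1 in endothelial cells (1.04) and macrophages (1.03). The summed ratio of the 5 repressors was below 1 in all 5 types. It was 0.513 (0.449 to 0.587) in macrophages, 0.680 (0.611 to 0.757) in endothelial cells, 0.825 (0.770 to 0.883) in fibroblasts, 0.833 (0.740 to 0.937) in pericytes and 0.837 (0.784 to 0.893) in cardiomyocytes. Single repressors above 1 included Cry1 in pericytes at 1.55 (1.07 to 2.25). With intervals that held 1, they also included Per3 in pericytes at 1.32 (0.902 to 1.93). The same held in endothelial cells for Cry1 at 1.27 (0.921 to 1.75) and Per3 at 1.16 (0.879 to 1.54). A sum is weighted towards its most abundant members, Npas2 in fibroblasts and Per1 in macrophages, and in pericytes Per1 and Per2 made the repressor sum lower.

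The mix of subtypes differed between the libraries, so the ratios were also taken within the clusters of both libraries clustered together. Of the cardiomyocytes, the cluster led by Pdzrn4 held 1191 Sham and 1656 TAC cells and the cluster led by Ptgds and Ankrd1 held 1319 and 740. Per1 was below 1 in all 9 clusters with at least 50 UMIs, at 0.390 to 0.852, and 4 of these passed the threshold. The highest of these ratios, in the fibroblasts led by Col8a1 and Nox4, had an interval that held 1 (0.700 to 1.03). In cardiomyocytes the Per1 ratio was 0.720 (0.619 to 0.836) and 0.785 (0.635 to 0.966) in these clusters. Per2 was below 1 in 7 of 8 clusters, the exception being the Ptgds and Ankrd1 cardiomyocytes at 1.03 (0.788 to 1.34). The Per2 interval held 1 in the largest endothelial cluster (0.546 to 1.04) and in the Pdzrn4 cardiomyocytes (0.731 to 1.06). Among fibroblasts its ratio was 0.583 (0.473 to 0.714) in the cluster led by Col8a1 and Nox4, 0.854 (0.614 to 1.19) in the Pi16 and Cd55 cluster and 0.895 (0.642 to 1.247) in the Nkain2 and Vit cluster. Npas2 was above 1 in all 3 fibroblast clusters, at 1.56 (1.44 to 1.69), 1.36 (1.19 to 1.55) and 1.18 (1.02 to 1.37) in the same order, and below 1 in both cardiomyocyte clusters, at 0.886 (0.799 to 0.983) and 0.755 (0.642 to 0.886).

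Dbp had 4 clusters with enough UMIs and was above 1 in each, from 1.18 in the Pdzrn4 cardiomyocytes to 2.67 (1.33 to 5.95) in the Pi16 and Cd55 fibroblasts, the latter from 10 Sham and 45 TAC UMIs. The highest Arntl ratio was 1.55 (0.969 to 2.58) in the Tmem108, Nrg1 and Npr3 endothelial cluster, from 24 Sham and 74 TAC UMIs, with an interval that held 1. Arntl stood at 1.44 (1.29 to 1.61) in the Pdzrn4 cardiomyocytes and 1.05 (0.888 to 1.23) in the Ptgds and Ankrd1 cardiomyocytes. Nr1d1 was below 1 in the 3 fibroblast clusters, at 0.679, 0.581 and 0.830, with an interval that held 1 in the last. In lymphatic endothelial cells, a small type of 85 Sham and 110 TAC cells, Per1 had 4 and 11 UMIs and Per2 5 and 13, too few for a ratio. No order is read from those counts.

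**Figure D3:**
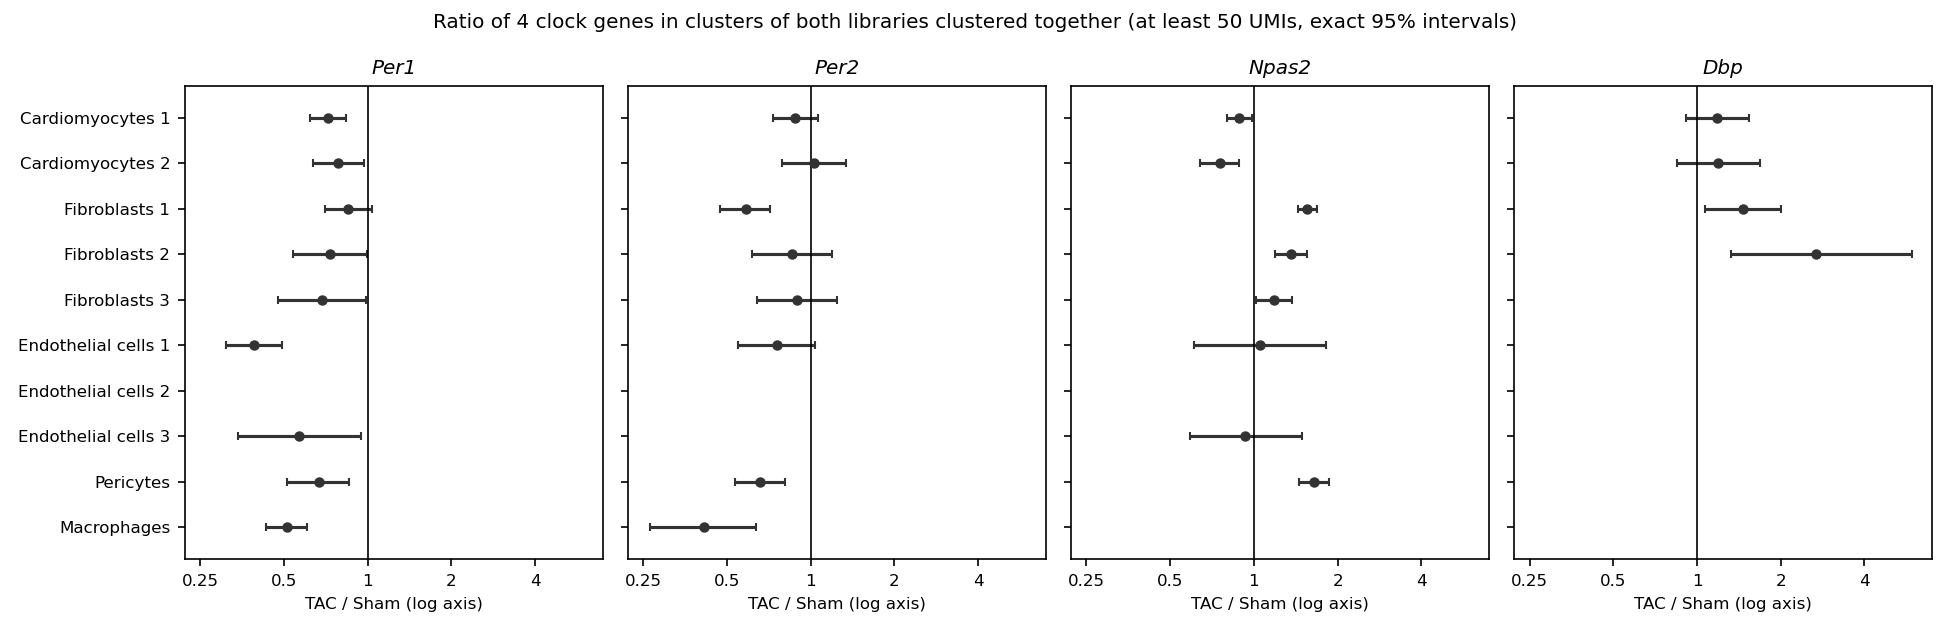
Ratio of TAC to Sham for Per1, Per2, Npas2 and Dbp on a log axis in clusters of both libraries clustered together, grouped by cell type, for clusters with at least 50 UMIs of the gene and with exact 95% intervals. Per1 sat below 1 in each of its 9 clusters (0.390 to 0.852), with an interval that held 1 at 0.852. Npas2 sat above 1 in the fibroblast and pericyte clusters and below 1 in both cardiomyocyte clusters.

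Other genes of the pathway were taken from a list by role. Of 13 further regulators of the loop, 50 pairs of gene and cell type had enough UMIs, of which 0 were higher and 5 lower in TAC. Those lower included Rora, an activator of Arntl, in macrophages at 0.525 (0.458 to 0.601) and Nr1d2, the partner of Nr1d1, in pericytes at 0.659 (0.542 to 0.7998). They also included Sirt1, a deacetylase, in pericytes at 0.624 (0.430 to 0.899) and Csnk1e, a kinase of the period proteins, in macrophages at 0.667 (0.502 to 0.882). The Rora level in macrophages was 254 in Sham and 134 in TAC. It was 5177 and 4989 in fibroblasts and 1814 and 1497 in cardiomyocytes. Markers of these 2 types reached 3.32% and 6.04% of their level in Sham macrophages and 3.56% and 3.91% in TAC macrophages. No change of macrophages is therefore read from the Rora ratio. Of 11 clock output genes, 40 pairs had enough UMIs, of which 1 was higher and 10 lower. Over all genes in the 5 types, 5425 of 53587 pairs were higher and 3411 lower.

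Tef, a relative of Dbp that acts through the same element, had a level of 138 in Sham and 70.6 in TAC cardiomyocytes, a ratio of 0.510 (0.471 to 0.552), and of 0.464 (0.355 to 0.604) in macrophages. Nampt, an enzyme of NAD synthesis under clock control, was lower in fibroblasts at 0.445 (0.390 to 0.507), and also in endothelial cells (0.655) and pericytes (0.632). Bhlhe40, an E-box repressor, was the 1 output gene called higher, in fibroblasts at 1.87 (1.49 to 2.35). Klf15, a heart metabolic regulator, was lower in endothelial cells at 0.460 (0.246 to 0.841), from 31 Sham and 19 TAC UMIs. It was also lower in pericytes, at 0.578 (0.329 to 0.995). The Klf15 level was 12.8 in Sham and 5.88 in TAC endothelial cells, against 65.0 and 45.7 in cardiomyocytes. Wee1, a cell cycle kinase, was lower in macrophages at 0.454 (0.257 to 0.780). In cardiomyocytes, where Tef was called lower, Dbp had a ratio of 1.16 (0.948 to 1.42), with an interval that held 1. The median log2 ratio of the output genes was -0.79 in macrophages (5 tested) and -0.16 in cardiomyocytes (11 tested), beside 0.00 and 0.03 for all genes.

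Genes that report signals known to act on Per1 were counted beside it. Of 10 genes induced by glucocorticoids, 45 pairs had enough UMIs, of which 2 were higher and 18 lower in TAC. Their summed level ranged over the 5 types from 2944 to 4112 in Sham and from 1268 to 1852 in TAC, with ratios of 0.391 in macrophages to 0.551 in pericytes. Zbtb16 and Fkbp5 took much of these sums except in TAC pericytes. The median log2 ratio of the genes tested was smaller in size, from -0.66 in cardiomyocytes to -0.19 in pericytes. The pair called higher were Errfi1, an inhibitor of growth factor receptors, in macrophages at 2.27 and Mt2, a metallothionein, in fibroblasts at 1.56. In TAC pericytes the Errfi1 level was 724, beside 338 for Zbtb16 and 142 for Fkbp5, and the Errfi1 ratio there was 1.08 (0.996 to 1.16). Fkbp5, a standard readout of glucocorticoid receptor activity, had ratios of 0.326 to 0.548, and Zbtb16, a zinc finger factor, of 0.183 to 0.419. Of 15 immediate-early genes, 56 pairs had enough UMIs, of which 10 were higher, 6 of them in fibroblasts, and 2 lower. Their summed ratio was 1.501 (1.41 to 1.59) in fibroblasts, where Per1 was at 0.778, and between 0.922 and 1.14 in the other 4 types. The part of either list in the result for Per1 was not tested.

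**Figure D4:**
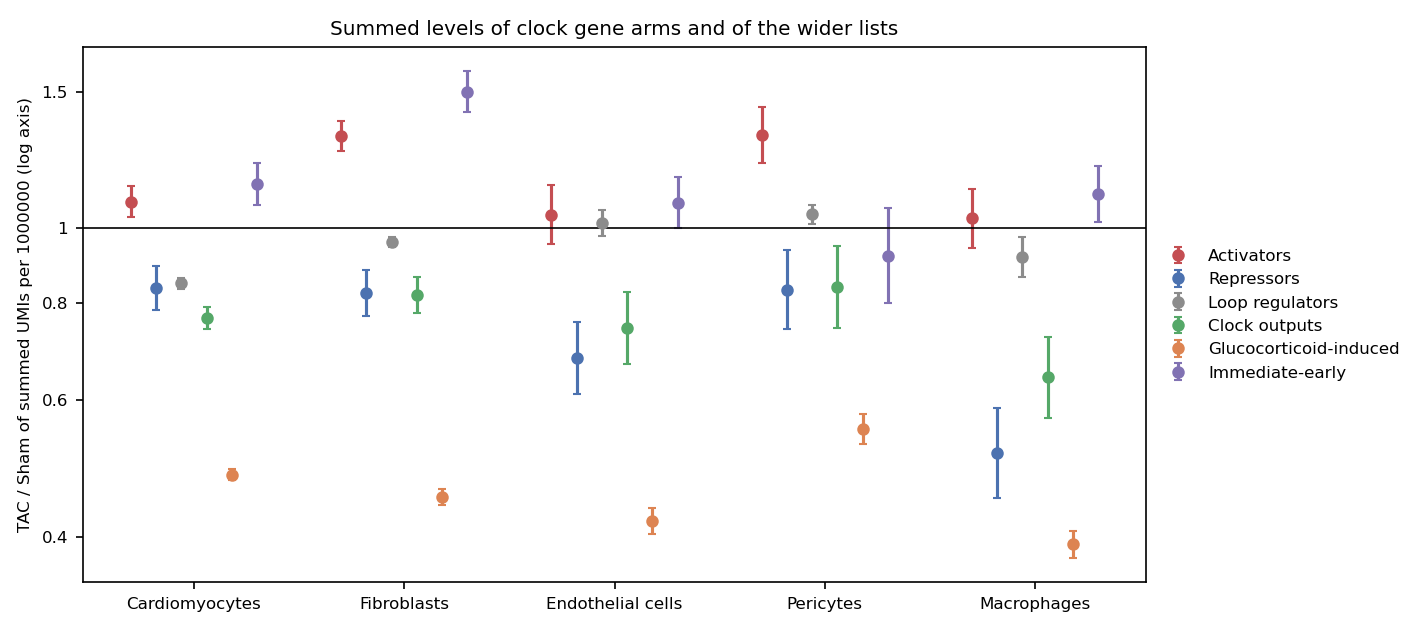
Ratio of TAC to Sham of summed UMIs per 1000000 on a log axis for the 3 activators, the 5 repressors, the 13 loop regulators, the 11 clock outputs and the 10 glucocorticoid-induced and 15 immediate-early genes in each large cell type, with exact 95% intervals. The repressors lay below 1 in all 5 types, lowest in macrophages at 0.513. The sums of the glucocorticoid-induced genes, to which Zbtb16 and Fkbp5 contributed much except in TAC pericytes, lay at 0.391 to 0.551.

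Measures of RNA quality moved between the libraries as well. Of 367 pairs of a ribosomal protein gene and a cell type, 68 were higher and 7 lower in TAC, 27 of the higher ones in fibroblasts. Malat1, a nuclear RNA, took 13.1% of cardiomyocyte UMIs in Sham and 16.2% in TAC, and Neat1, another, was at 0.497 in cardiomyocytes. The median mitochondrial share per cell was 0.459% in Sham and 0.287% in TAC. In cardiomyocytes, mitochondrial genes took 0.259% of UMIs in Sham and 0.145% in TAC, and ribosomal protein genes 0.122% and 0.128%. How much of the counted RNA was nuclear was not tested, so the levels are not read as those of whole-cell RNA. Myh6, Ttn and Tnnt2, which mark cardiomyocyte RNA, stood in the other 4 large types at 1.9996% to 7.78% of their cardiomyocyte level in Sham and at 1.91% to 5.51% in TAC. The part of these differences in the ratios was not tested. For Per1 in macrophages, the upper estimate of cardiomyocyte and fibroblast RNA was 3.37% of the level in Sham and 4.24% in TAC.

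For the 7 members with at least 50 UMIs in every large type, the genes nearest to their 5 log2 ratios were sought among 2542 genes with at least 200 UMIs over both libraries in each type. Arntl lay nearest to Tln2, an adaptor of integrins, at a Euclidean distance of 0.10 on the log2 scale, and Clock to Taok1, a kinase, at 0.07. Cry2 lay nearest to Nisch at 0.20. The nearest genes of Per1 (Prrc2a, 0.52), Per2 (Ldb3, 0.46), Per3 (Pde3a, 0.45) and Cry1 (Ebf1, 0.52) were farther away. The third nearest gene of Per2 was Myh6, at 0.52, which is a marker of cardiomyocytes.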

How the data were processed

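The deposited values are counts: the authors ran Cell Ranger (7.1.0 in the submitters' processing notes) on both libraries to count UMIs and deposited the filtered matrices without normalization. The kit is V3 by the labels, while the study's methods name an earlier kit and an earlier Cell Ranger version, and which applied could not be settled. The genome build, annotation and the counting of introns were not given in the sources used here. Of the 55357 gene identifiers, 94.1% were in GENCODE M21 (GRCm38), which gave gene positions.

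Counts were analysed with scanpy 1.11.5, anndata 0.12.19, scipy 1.17.1, numpy 2.4.6, pandas 2.3.3, igraph 0.11.9, matplotlib 3.10.9 and Python 3.11.15. Removed were barcodes under 200 detected genes (1 per library) and Scrublet doublets (459 Sham, 4.62%, and 479 TAC, 4.82%, at an expected 0.8% per 1000 cells), while the 32 barcodes in both libraries were kept. Each library was clustered alone (10000 UMIs per cell, log, 2000 variable genes, 30 principal components, 15 neighbours, Leiden resolution 1, seed 1) without the clock members, the wider lists and mitochondrial genes. Naming a cluster took 3 or more markers out of fixed sets for 18 types, each detected in 10% or more of the cells and raised by 1 or more on the log2 scale (0.05 added). A cluster of 49 Sham cells led by cell cycle genes stayed unnamed.

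Ratios are TAC over Sham of summed UMIs per 1000000, called at 1.5 with at least 50 UMIs over both libraries. All members are named, and of each list up to 5 genes past that ratio, except 1 loop regulator that is not reported here. The markers of fibroblast RNA, the clusters quoted and the figures' choice of genes were picked after the values were seen. The members and lists were chosen with earlier results of these data known. The steps were tested on simulated data.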

Additional observations from a re-analysis of the deposited data

How the results depend on the processing

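No paired analysis was possible because Sham and TAC were single libraries, so that nothing could be paired, tested or left out. The main settings gave 3 pairs of member and cell type higher and 10 lower in TAC, of 45. A ratio of 2 in place of 1.5 left 0 higher and 4 lower, a minimum of 100 UMIs left 3 higher and 6 lower of 40 pairs, and the remaining alternatives gave 2 to 4 higher and 7 to 13 lower, the lowest count of lower pairs with no doublets removed and the highest with the mean of each cell's share. The share of all genes is given for the main settings only, so no excess over all genes is read from these other counts. Of 585 ratios recomputed under 13 alternatives, 584 stayed within the interval of the main value, the exception being Npas2 in endothelial cells with no doublets removed (0.707). Of 1200 recomputed levels, 1188 stayed within their interval. Of 300 recomputed shares of cells, 54 did, since the share follows the number of UMIs kept. Depth limits Dbp, Cry1 and Nr1d1 most, with 354 to 579 UMIs each in a library. Of the 13 calls, those lost under at least 1 of these 13 alternatives were Per1, Per2 and Cry1 in pericytes, Cry1 and Cry2 in macrophages and Dbp in fibroblasts.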

Other observations

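The 6 small cell types held few UMIs of the members, and of these only Clock in lymphatic endothelial cells is described singly. Smooth muscle cells, the contractile cells of vessel walls, gave 89 UMIs of the 10 members in 50 Sham cells and 69 in 43 TAC cells. T cells gave 22 in 37 Sham cells and 39 in 57 TAC cells, and B cells 18 in 35 and 21 in 36. Epicardial cells gave 17 in 19 and 44 in 26, and Schwann cells, the glia of nerves, 29 in 17 and 18 in 15. In lymphatic endothelial cells the Clock level was 213 (152 to 292) in Sham and 164 (118 to 222) in TAC, from 39 and 42 UMIs.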
